A study of Mus musculus with 10 samples.

Results

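The prostaglandin E2 branch was followed here through 10 genes: the cyclooxygenases Ptgs1 and Ptgs2, the synthases Ptges, Ptges2 and Ptges3, the receptors Ptger1, Ptger2, Ptger3 and Ptger4, and the degrading enzyme Hpgd. Members were chosen by gene symbol on the array, and 15 of the 34945 probe sets with a single gene symbol belong to 8 of them. The annotation used here pairs no probe set with Ptgs1, which was not analysed here. Both probe sets of Ptges3 are also annotated to its pseudogene Ptges3-ps, so they give no value of Ptges3 alone and were not tested. Of the 15 probe sets, 14 passed the filter on low values and at least 1 of them belonged to each of the 8 genes.

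RNA came from the aorta of male C57BL/6 mice on a chow diet, either wild type or Ptgds-/-, that is, without lipocalin-type prostaglandin D synthase (L-PGDS). Values were available for 4 wild type arrays (replicates 1, 3, 4 and 5) and 5 knockout arrays (replicates 1 to 5); wild type replicate 2 is labelled as left out of the study's analysis and has no values. The replicates are called biological, and each array is 1 sample. The age of the mice, the construct of the allele, its genetic background before crossing and the hour of dissection were not given in the sources used here, and no Cre or cell type restriction is named. Values are log2 expression after the array processing method GCRMA, differences are knockout minus wild type on that log2 scale, and a probe set passed when its limma p-value, adjusted over all 26504 tested probe sets, was under 0.05.

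Prostaglandin E2 is made from arachidonic acid, which phospholipases release from membranes. A cyclooxygenase turns it into prostaglandin H2, the substrate that L-PGDS and the prostaglandin E synthases both use. Ptgs1 encodes the constitutive cyclooxygenase COX-1 and Ptgs2 the inducible COX-2, whose transcript is an immediate early product of many stimuli. In vessels, prostaglandin E2 relaxes smooth muscle through the receptors EP2 and EP4, which raise cyclic AMP, and contracts it through EP1 and EP3. Hpgd encodes 15-hydroxyprostaglandin dehydrogenase, which inactivates prostaglandin E2.

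The promoter windows of 3 members are shown because their genes carry the comparison: Ptgs2 and Ptger2 had the largest differences, and Ptges encodes the inducible synthase that is often coupled to COX-2. Each runs from 250 bases before the RefSeq start to 30 bases after it, 5′ to 3′ on the gene's strand in GRCm38.p6, with motif matches in capitals. The Ptgs2 window is chr1:150099781-150100060 on the plus strand, the Ptges window chr2:30903268-30903547 on the minus strand and the Ptger2 window chr14:44987861-44988140 on the plus strand.
Ptgs2: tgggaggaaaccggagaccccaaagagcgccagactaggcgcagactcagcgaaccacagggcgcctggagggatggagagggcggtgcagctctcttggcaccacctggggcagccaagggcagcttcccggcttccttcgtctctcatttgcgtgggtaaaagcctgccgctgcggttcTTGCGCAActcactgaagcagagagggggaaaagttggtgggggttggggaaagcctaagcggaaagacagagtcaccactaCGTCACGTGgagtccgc
Ptges: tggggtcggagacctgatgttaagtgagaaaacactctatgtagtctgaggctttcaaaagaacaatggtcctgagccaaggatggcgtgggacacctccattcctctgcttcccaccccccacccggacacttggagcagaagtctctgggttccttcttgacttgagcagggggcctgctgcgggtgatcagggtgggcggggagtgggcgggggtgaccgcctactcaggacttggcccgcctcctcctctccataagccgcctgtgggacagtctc
Ptger2: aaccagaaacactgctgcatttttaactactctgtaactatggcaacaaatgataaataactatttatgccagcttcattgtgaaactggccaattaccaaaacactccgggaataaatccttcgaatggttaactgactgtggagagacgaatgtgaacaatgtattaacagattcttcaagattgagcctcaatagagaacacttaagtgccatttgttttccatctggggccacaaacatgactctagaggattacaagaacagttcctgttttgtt
Both strands were searched for an E-box (CACGTG), a cyclic AMP response half-site (CGTCA), a C/EBP site (TTGCGCAA), an AP-1 site (TGANTCA) and an EGR site (GCGNGGGCG). The Ptgs2 window held a C/EBP match starting at -69 and a half-site match at 14 that overlaps an E-box match at 17. All 3 positions count from the RefSeq start, and the arrays do not show where transcription starts. The Ptges and Ptger2 windows held 0 matches to these 5 motifs. Of the member windows not shown, that of Ptges2 held an E-box match at -77 and that of Ptges3 a half-site match at 12. Among 32851 windows of the same length, 0.180% held the C/EBP letters, 19.9% the half-site and 6.79% the E-box. A match is a description of the letters and not evidence of binding.

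Array-wide facts bear on every value. Ptgds itself read 9.11, 10.31, 8.79 and 8.68 on the wild type arrays and 3.86, 3.92, 3.76, 3.67 and 4.40 on the knockout arrays (probe set 1423859_a_at). Means of 9.22 ± 0.75 (SD, n = 4) and 3.92 ± 0.29 (SD, n = 5) gave a difference of -5.30 (SE 0.31, adjusted p = 0.00060 in limma), with an exact two-sided permutation p of 0.0079, the smallest these groups allow. Its second probe set, 1423860_at, stood at -1.80 (SE 0.34, adjusted p = 0.089 in limma), without overlap of the groups but not past the threshold. Smooth muscle markers, the defining genes of the tissue, averaged 12.18 to 12.39 on wild type and 12.25 to 12.46 on knockout arrays. Neuron markers averaged 11.11 on wild type replicate 3 and 9.36 on knockout replicate 1 against 5.08 to 7.82 elsewhere, and wild type replicate 3 had the lowest mean correlation with the other arrays (0.981 against 0.989 to 0.992). In bulk tissue, fewer cells of a type and less RNA per cell cannot be told apart. Across all tested probe sets 21 passed (0.0792%), and that number was 1673 (6.31%) without wild type replicate 1, 6 or 7 without wild type replicate 4 or 5 or knockout replicate 1, 2, 3 or 5, and 14 and 31 without wild type replicate 3 and knockout replicate 4.

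None of the 14 tested probe sets of the E2 branch passed in limma, against 0.0792% of all tested probe sets. The lowest adjusted p among them was 0.19. At an unadjusted p under 0.05 there was 1, that of Ptger2, lower in the knockout, where 18.9% of all tested probe sets reached that level in either direction and 8.38% in the lower direction. The groups did not overlap for 0 of the 14, against 6.42% of all tested probe sets. 7 of the 14 lay higher and 7 lower, with a median difference of -0.0017 beside 0.011 over all tested probe sets, and the median size of the difference, sign aside, was 0.060 beside 0.13.

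**Figure D1:**
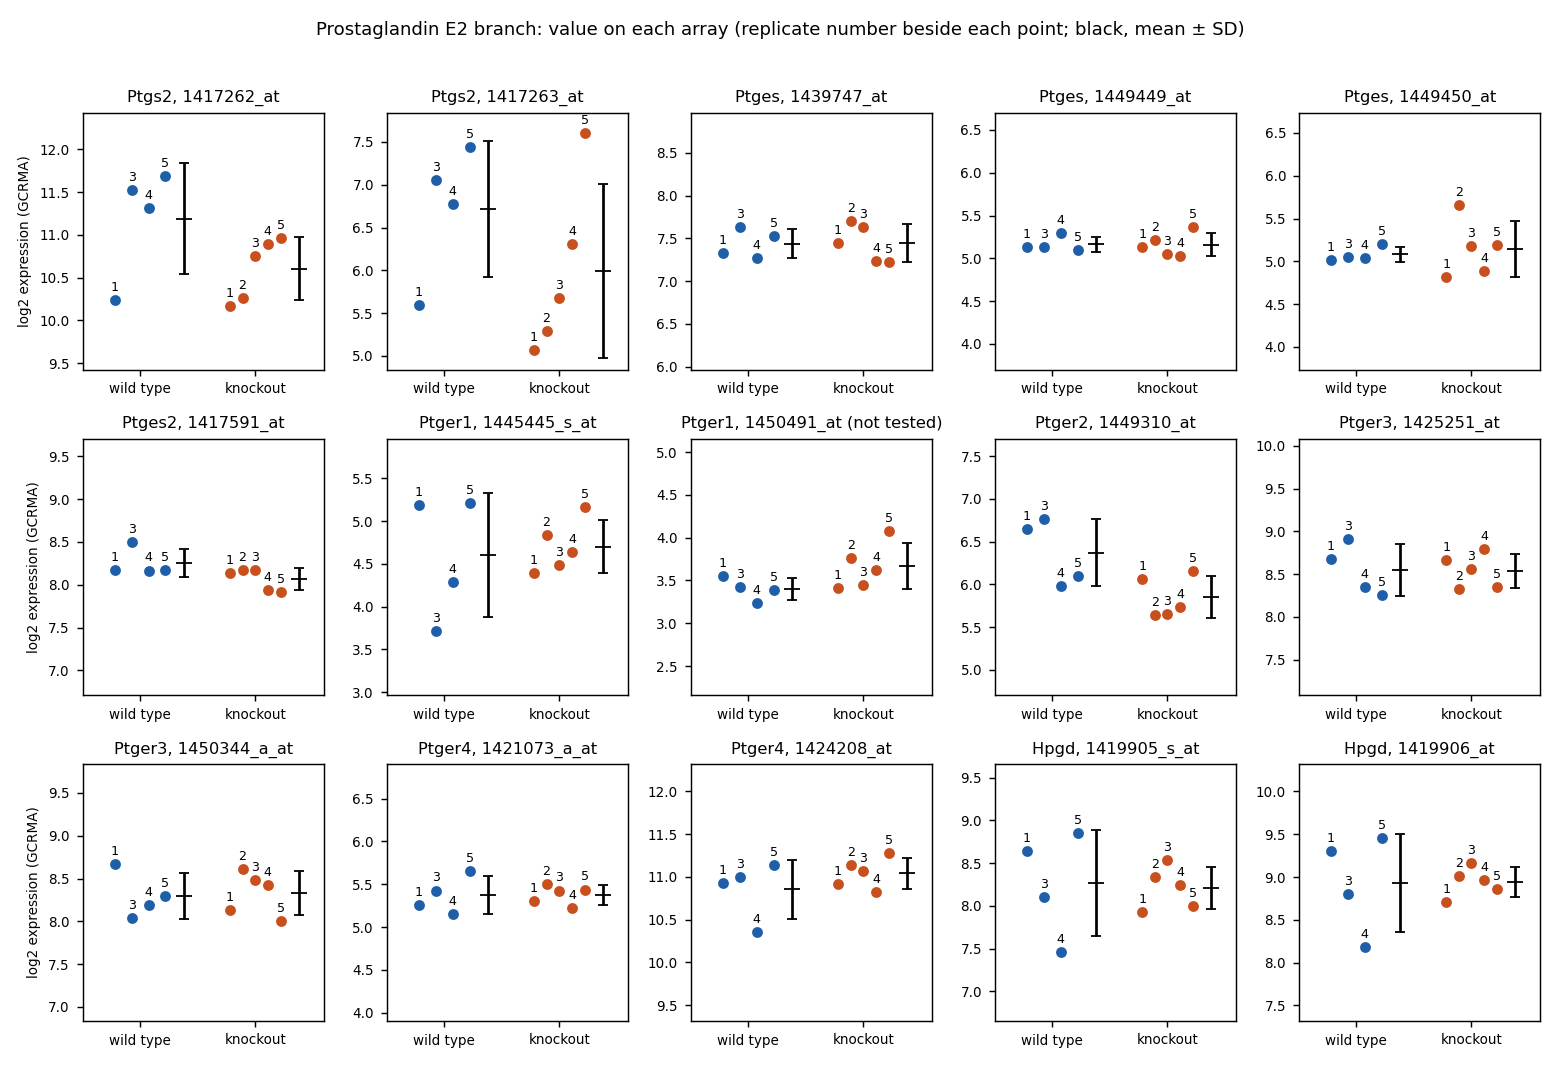
Each panel plots 1 probe set of the E2 branch, with log2 expression on an axis spanning the same width in every panel, each point 1 array with its replicate number, and black bars giving mean ± SD of the 4 wild type and 5 knockout arrays. Ptgs2, Hpgd and the tested Ptger1 probe set spread widely within the wild type group, Ptges and Ptges2 little, and the groups overlap in all 14 tested panels.

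Ptgs2 had the largest differences of the branch, toward lower values in the knockout, and neither of its probe sets passed. On probe set 1417262_at, wild type replicates 1, 3, 4 and 5 read 10.24, 11.52, 11.32 and 11.68. The knockout replicates 1 to 5 read 10.16, 10.26, 10.75, 10.89 and 10.96. Wild type replicates 3, 4 and 5 lay above all 5 knockout arrays, and wild type replicate 1 lay between the lowest knockout arrays, 1 and 2. The means were 11.19 ± 0.65 (SD, n = 4) and 10.61 ± 0.37 (SD, n = 5). Their difference was -0.58 (SE 0.30, 95% interval -1.26 to 0.088, adjusted p = 0.32 in limma). The residual spread of this probe set between arrays was larger than that of 96.0% of tested probe sets, so the interval leaves room for a fall of 2.39-fold and for no difference at all.

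The second Ptgs2 probe set, 1417263_at, is dimmer and more variable. It read 5.59, 7.05, 6.78 and 7.44 on the wild type arrays and 5.07, 5.29, 5.68, 6.31 and 7.60 on the knockout arrays. Knockout replicate 5 was here the highest of all 9 arrays, while on the brighter probe set it lay below 3 wild type arrays. The difference was -0.72 (SE 0.54, 95% interval -1.93 to 0.49, adjusted p = 0.49 in limma). Deviations of the arrays from their group means correlated at 0.85 between the Ptgs2 probe sets, a description over 9 arrays of the same RNA.

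Whether the brighter Ptgs2 probe set passed turned on wild type replicate 1, while the direction of the difference did not. Without that array the brighter probe set stood at -0.90 (SE 0.20, adjusted p = 0.042 in limma), past the threshold, in a fit in which 6.31% of all tested probe sets passed. The dimmer probe set then stood at -1.10 (SE 0.53, adjusted p = 0.24 in limma), and at -1.13 (SE 0.41, adjusted p = 0.27 in limma) without knockout replicate 5. Without any 1 array the brighter probe set ranged from -0.90 to -0.42 and the dimmer from -1.13 to -0.48, lower in the knockout each time.

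Immediate early genes, which cells transcribe within minutes of a stimulus, varied with Ptgs2 over the arrays. The mean of Fos, Fosb, Jun, Junb and Egr1 was 9.54, 10.80, 10.60 and 10.87 on the wild type arrays and 9.68, 9.98, 10.49, 10.20 and 10.65 on the knockout arrays. It was lowest on wild type replicate 1 and knockout replicates 1 and 2, the arrays with the lowest values of the brighter Ptgs2 probe set. With that mean as a covariate, a choice made after seeing the data, Ptgs2 stood at -0.34 (SE 0.10, adjusted p = 0.20 in limma) on the brighter and at -0.33 (SE 0.33, adjusted p = 0.63) on the dimmer probe set. Among the 5 genes, Fosb, an AP-1 subunit, had the largest difference, -1.08 (SE 0.43, adjusted p = 0.23 in limma), and the differences of the other 4 lay between -0.12 and -0.011. The covariate holds Fosb, so its fit can take out part of a group difference and cannot divide it between knockout and early genes. Unadjusted p-values in limma went from 0.081 to 0.011 on the brighter and from 0.21 to 0.34 on the dimmer probe set with the covariate. What part the early genes have in the Ptgs2 difference was not tested.

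The 3 genes whose arrays deviated most like Ptgs2, out of 14319 others, were Sphk1 (r = 0.99), Nr4a1 (r = 0.97) and Nfkbiz (r = 0.97), as a description over 9 arrays after group means were subtracted. Sphk1 encodes sphingosine kinase, Nr4a1 an orphan nuclear receptor of the early response and Nfkbiz an atypical inhibitor protein of the NF-kappa-B family. Nr4a1 read 8.46 on wild type replicate 1 and 9.72 to 11.19 on the other 8 arrays. Group differences were -0.91 (SE 0.26, adjusted p = 0.14) for Sphk1, 0.13 (SE 0.56, adjusted p = 0.92) for Nr4a1 and -0.17 (SE 0.30, adjusted p = 0.78) for Nfkbiz in limma. Sphk1, the gene most like Ptgs2, lay lower in the knockout as Ptgs2 did, with an unadjusted p of 0.0062 in limma. The differences of Nr4a1 and Nfkbiz were smaller than their SE, so their direction is not settled. Whether the variation shared with these genes has a part in the Ptgs2 difference was not tested.

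**Figure D2:**
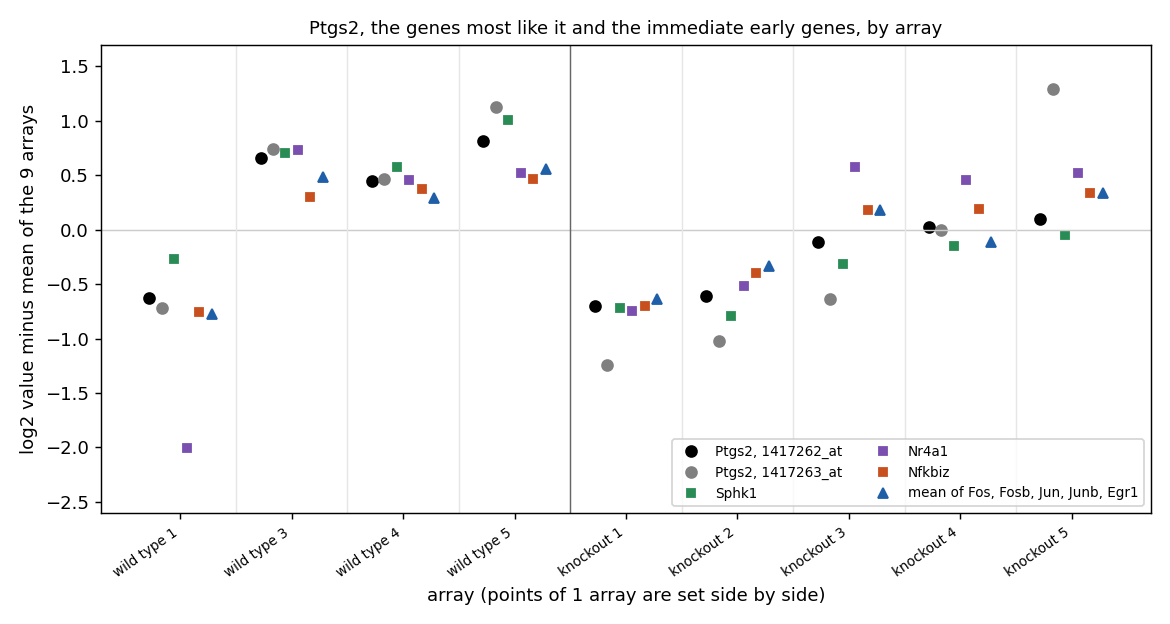
Each point is the log2 value of a gene, or of the mean of 5 immediate early genes, on 1 array minus its mean over the 9 arrays, with arrays on the horizontal axis and the groups parted by the dark line. Wild type replicate 1 and knockout replicates 1 and 2 lie below 0 in all 6 series, and wild type replicates 3, 4 and 5 lie above 0 in all 6.

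The prostaglandin E synthases gave narrower intervals. Ptges encodes the inducible microsomal synthase mPGES-1. Its brightest probe set, 1439747_at, read 7.33, 7.63, 7.28 and 7.53 in wild type and 7.45, 7.71, 7.63, 7.23 and 7.22 in knockout aortas. The groups lay over each other, with a difference of 0.0083 (SE 0.13, 95% interval -0.27 to 0.29, adjusted p = 0.98 in limma). The other Ptges probe sets read 5.10 to 5.30 and 5.02 to 5.21 in wild type and 5.03 to 5.37 and 4.81 to 5.65 in knockout aortas (1449449_at and 1449450_at), with differences of -0.0059 (SE 0.084) and 0.065 (SE 0.16). The array deviations of the 3 Ptges probe sets correlated at -0.32, 0.57 and 0.31, so they did not rank the arrays alike. Tanc2 (r = 0.98), a synaptic scaffold protein, Lypla2 (r = 0.96), an acyl-protein thioesterase, and Fcho2 (r = 0.95), an endocytic adaptor, were most like the brightest. Between the brightest probe sets of Ptges and Ptgs2 the same measure was -0.014. At the 95% level the intervals of Ptges ended within 1.33-fold in the higher and 1.22-fold in the lower direction.

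Ptges2, which encodes the membrane-associated synthase mPGES-2, lay slightly lower in the knockout without passing. Probe set 1417591_at read 8.17, 8.50, 8.17 and 8.18 on the wild type arrays and 8.14, 8.17, 8.17, 7.94 and 7.91 on the knockout arrays. Wild type replicate 3 stood above all others and knockout replicates 4 and 5 below, while the remaining 6 arrays lay between 8.14 and 8.18. The difference was -0.19 (SE 0.097, 95% interval -0.41 to 0.031, adjusted p = 0.33 in limma), and -0.10 (SE 0.083, adjusted p = 0.58) without wild type replicate 3. Brown adipocyte markers, from the fat around the aorta, were highest on the same wild type replicate 3 (mean 11.68) and lowest on the same knockout replicates 4 (10.37) and 5 (10.21), with 10.85 to 11.29 elsewhere. All 7 of those markers were measured, and their mean ranged from 10.85 to 11.68 in wild type and from 10.21 to 11.00 in knockout aortas. The genes most like Ptges2 over the 9 arrays were Acadl (r = 0.99), a mitochondrial dehydrogenase of fatty acid oxidation, Sdr39u1 (r = 0.99) and Slc25a20 (r = 0.98), the mitochondrial carnitine carrier. Ptges2 also deviated with the brightest of the 3 Ptges probe sets, 1439747_at (r = 0.84). White adipocyte markers, 5 of 7 of them tested, averaged 10.82 to 11.41 on wild type and 10.08 to 11.28 on knockout arrays. The part of fat content in the Ptges2 values was not tested.

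The probe sets annotated to both Ptges3 and Ptges3-ps were bright on every array. Ptges3 encodes the cytosolic synthase, also known as the HSP90 co-chaperone p23. Probe set 1417998_at read 12.86, 12.79, 12.92 and 12.94 in wild type and 12.82, 12.77, 12.79, 12.83 and 12.65 in knockout aortas. Probe set 1460221_at read 12.47, 12.38, 12.44 and 12.57 in wild type and 12.43, 12.36, 12.33, 12.35 and 12.18 in knockout aortas. Group means differed by -0.11 and -0.14, the groups overlapped, and knockout replicate 5 was the lowest array on both.

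Among the receptors, Ptger2, the gene of the cyclic AMP-coupled receptor EP2, had the largest difference. Probe set 1449310_at read 6.65, 6.76, 5.98 and 6.10 on the wild type arrays and 6.06, 5.65, 5.66, 5.73 and 6.16 on the knockout arrays. Wild type replicates 1 and 3 stood above every knockout array, while wild type replicates 4 and 5 lay within the knockout range. The means were 6.37 ± 0.39 (SD, n = 4) and 5.85 ± 0.24 (SD, n = 5), a difference of -0.52 (SE 0.19), or 1.44-fold lower. Its 95% interval of -0.94 to -0.098 is not adjusted for the number of probe sets, and the adjusted p was 0.19 in limma. Without any 1 array the difference ranged from -0.65 to -0.39, with adjusted p-values of 0.19 to 0.36. Nearest to Ptger2 over the arrays were Paqr8 (r = 0.95), a membrane progestin receptor, the transcript 9330133O14Rik (r = 0.95) and Dok2 (r = 0.92), an adaptor protein of blood cells.

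Macrophages and mast cells also carry EP2, and the differences of their markers had the same sign as that of Ptger2. All 7 macrophage markers lay lower in the knockout, and their mean was 8.29 to 9.37 on wild type and 8.45 to 8.70 on knockout arrays. Mast cell markers lay lower in 6 of 6 tested members, at 6.31 to 7.48 in wild type and 6.20 to 6.90 in knockout aortas. Of these markers 0 passed in limma, and 1 macrophage and 1 mast cell marker had an unadjusted p under 0.05, a level that 19.1% of all tested genes reached. Among wild type arrays both lists and Ptger2 were lowest on replicate 4, and the lists were highest on replicate 5 and Ptger2 on replicate 3. Among knockout arrays both lists were highest on replicate 3, with macrophage markers lowest on replicate 5 and mast cell markers on replicate 1. Ptger2 was highest on knockout replicate 5 (6.16) and lowest on knockout replicate 2 (5.65), so the knockout arrays did not share that order. Endothelium, fibroblast, brown adipocyte and platelet markers were also lowest on replicate 4 among wild type arrays. Lower in the knockout too were all tested markers of endothelium (7), brown (7) and white (5) adipocytes and neurons (7). Most tested markers lay higher for smooth muscle (6 of 7), skeletal muscle (5 of 5) and mesothelium (5 of 6). The same held for T or B cells (4 of 5), platelets (4 of 5) and neutrophils (2 of 2). Skeletal muscle markers averaged 9.68 on knockout replicate 3 and 4.53 to 5.08 on all other arrays, so their high values came from 1 array. The part of any cell type in the Ptger2 difference was not tested.

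Ptger4, the gene of the other cyclic AMP-coupled receptor, EP4, was measured on a bright and a dim probe set. The bright 1424208_at read 10.93, 11.00, 10.36 and 11.14 in wild type and 10.92, 11.14, 11.07, 10.82 and 11.28 in knockout aortas. Wild type replicate 4 alone lay below the knockout range. The difference was 0.19 (SE 0.16, 95% interval -0.17 to 0.55, adjusted p = 0.56 in limma), and 0.021 (SE 0.11) without that array. The dim 1421073_a_at stood at 5.37 ± 0.22 (SD, n = 4) and 5.38 ± 0.11 (SD, n = 5), a difference of 0.0025 (SE 0.11). Deviations of both correlated at 0.86 over the 9 arrays. Endothelial markers, all 7 of them lower in the knockout, averaged 9.33 to 9.85 on wild type and 9.15 to 9.46 on knockout arrays. Wild type replicate 4 had their lowest wild type mean, and knockout replicate 1 the lowest of all 9 arrays (9.15). Fibroblast markers were lowest on wild type replicate 4 (11.30) and knockout replicate 4 (11.38), as was the bright Ptger4 probe set. Macrophage markers were also lowest on wild type replicate 4 (8.29). The part of any cell type in the Ptger4 values was not tested. Genes most like the bright probe set were Egfl7 (r = 0.96), a secreted endothelial factor, Pltp (r = 0.96), a phospholipid transfer protein, and Nrp1 (r = 0.95), a coreceptor for vascular endothelial growth factor.

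Ptger3, the gene of the inhibitory receptor EP3, was represented by a pair of probe sets of like brightness that ranked the arrays differently. Probe set 1425251_at read 8.68, 8.91, 8.35 and 8.26 in wild type and 8.66, 8.33, 8.56, 8.79 and 8.35 in knockout aortas. Probe set 1450344_a_at read 8.67, 8.03, 8.19 and 8.29 in wild type and 8.13, 8.61, 8.48, 8.43 and 8.001 in knockout aortas. Wild type replicate 3 was the highest array on the former and lay above only knockout replicate 5 on the latter, and the deviations correlated at -0.044. EP3 transcripts are spliced into several isoforms, and the files do not say which of them each probe set detects. The differences were -0.011 (SE 0.15, 95% interval -0.35 to 0.33) and 0.032 (SE 0.16, 95% interval -0.33 to 0.39), with adjusted p-values of 0.98 and 0.93 in limma. Schwann cell markers, 4 of 7 of them tested, averaged 10.98 on wild type replicate 3, 10.52 on knockout replicate 4 and 10.47 on knockout replicate 1, against 9.44 to 10.07 on the others. Probe set 1425251_at was highest on wild type replicate 3 and knockout replicate 4 too, while 1450344_a_at was highest on wild type replicate 1 (8.67). The genes most like 1425251_at were Vwa1 (r = 0.96), Nrn1 (r = 0.95), which encodes the neuronal protein neuritin, and Irgq (r = 0.94). The part of any cell type in the Ptger3 values was not tested.

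Ptger1, the gene of the calcium-coupled receptor EP1, was near the floor of the arrays. Probe set 1450491_at read 3.24 to 3.55 in wild type and 3.42 to 4.08 in knockout aortas, was over a log2 value of 4 on a single array and was not tested. Probe set 1445445_s_at read 5.18, 3.72, 4.29 and 5.21 in wild type and 4.39, 4.83, 4.49, 4.64 and 5.17 in knockout aortas, with a difference of 0.10 (SE 0.31, 95% interval -0.60 to 0.80, adjusted p = 0.89 in limma). At such levels the size of a difference is not exact. Gas8 (r = 0.95), Chrd (r = 0.95), which encodes the bone morphogenetic protein inhibitor chordin, and Ube2q1 (r = 0.94), a ubiquitin-conjugating enzyme, were most like it.

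Hpgd varied more among the wild type than among the knockout arrays, around means that lay close together. Probe set 1419906_at read 9.30, 8.80, 8.19 and 9.45 in wild type and 8.71, 9.02, 9.17, 8.97 and 8.86 in knockout aortas. Wild type arrays lay both above and below the whole knockout range. The wild type SD was 0.57 (n = 4) and the knockout SD 0.17 (n = 5), and the difference 0.0086 (SE 0.23, 95% interval -0.52 to 0.53, adjusted p = 0.99 in limma). The second probe set, 1419905_s_at, followed the first closely (correlation of deviations 0.99) and differed by -0.056 (SE 0.26, 95% interval -0.65 to 0.54, adjusted p = 0.93 in limma). Wild type replicate 4 was the lowest array for both Hpgd probe sets and for both Ptger4 probe sets, and the deviations of Hpgd and Ptger4 on their brightest probe sets correlated at 0.75. Zmat5 (r = 0.97), Pigz (r = 0.96), an enzyme of glycosylphosphatidylinositol anchor synthesis, and Cadps2 (r = 0.95), which acts in vesicle release, were most like Hpgd.

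**Figure D3:**
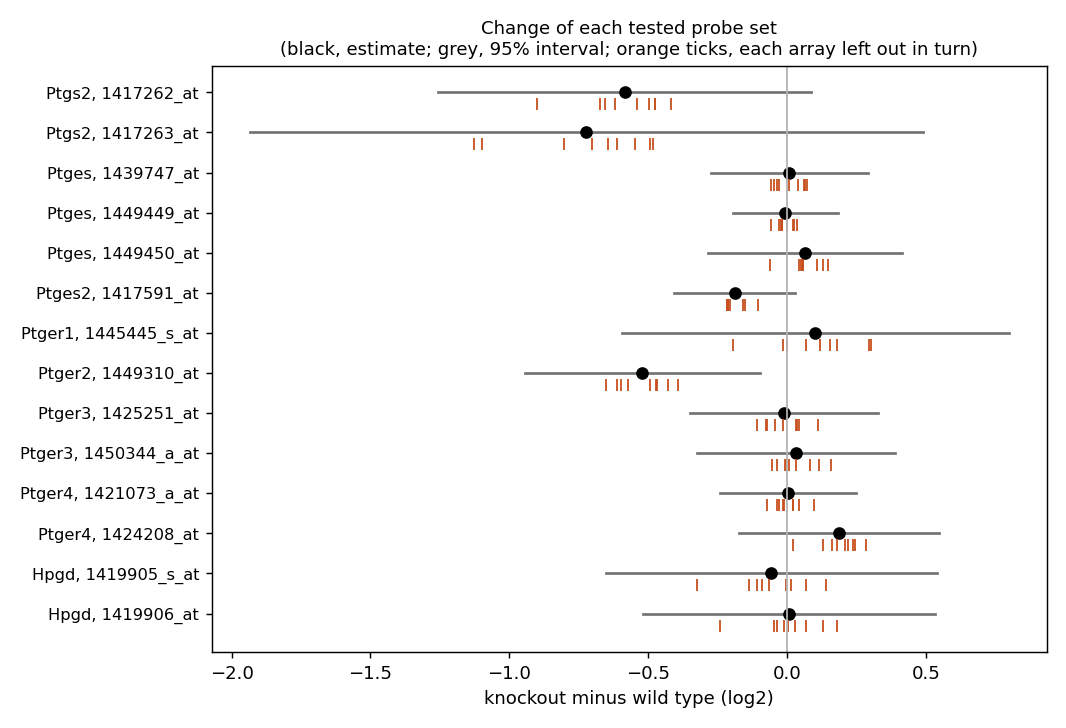
The horizontal axis gives the difference, knockout minus wild type in log2, of each tested probe set: black points are estimates, grey lines 95% intervals and orange ticks the estimates with each array left out in turn. Both Ptgs2 probe sets, Ptges2 and Ptger2 stayed below 0 with any 1 array left out, the bright Ptger4 probe set stayed above 0, and the other 9 probe sets fell on both sides.

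Ptgs1, Ptges and Ptges2 lie on chromosome 2, as does the deleted Ptgds, with 172, 100 and 125 tested genes between each and Ptgds by gene order (GRCm38.p6). The other 7 members lie on other chromosomes. Ptges and Ptges2 are thus the measured members on the same chromosome as the targeted gene, and for them an effect of the deletion and of any chromosome 2 DNA that came with the allele cannot be told apart.

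Other genes of the pathway were read from 5 lists holding 120 genes, of which 104 were tested, each by its brightest probe set. In limma 0 of the 104 passed, against 0.0628% of all 14320 tested genes, and 26 had an unadjusted p under 0.05, which is 25.0% against 19.1% of all tested genes. Without wild type replicate 1 the number past the threshold was 13 of 104, in the fit in which 6.31% of all tested probe sets passed. That share counts every tested probe set, while the 13 counts 1 probe set per gene, so the units differ. Their median difference was -0.047 beside 0.027 over all tested genes. The lowest adjusted p was 0.10, for Fosl1.

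Of the genes of arachidonate supply and release, 21 of 27 were tested, 14 lower and 7 higher in the knockout (median -0.092). Acsl4, an acyl-CoA synthetase that prefers arachidonate, read 10.67 ± 0.17 (SD, n = 4) in wild type and 10.33 ± 0.08 (SD, n = 5) in knockout aortas (-0.34, SE 0.087, adjusted p = 0.13 in limma), and its groups did not overlap. Pnpla8, a calcium-independent phospholipase, stood at -0.27 (SE 0.080), also without overlap. The cytosolic phospholipase gene Pla2g4e stood at 0.50 (SE 0.15). Both of these had an adjusted p of 0.15.

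For prostaglandin E2 transport and breakdown, 11 of 12 genes were tested, 5 higher and 6 lower (median -0.18). Ptgr1, which reduces the 15-keto products of Hpgd, read 6.80, 6.25, 6.24 and 6.13 in wild type and 6.87, 6.73, 6.92, 6.96 and 6.83 in knockout aortas, a difference of 0.51 (SE 0.13, adjusted p = 0.13 in limma). Wild type replicate 1 was the array on which the groups met. Gstm2, a glutathione transferase, stood at 0.30 (SE 0.078, adjusted p = 0.13) with no overlap, and Slco2b1, an organic anion transporter, at -0.35 (SE 0.10, adjusted p = 0.14).

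In the list of EP receptor signalling, 31 of 34 genes were tested, 13 higher and 18 lower (median -0.026). Crem, the cyclic AMP response element modulator, read 8.25, 8.95, 9.01 and 8.95 in wild type and 7.85, 7.92, 7.94, 8.55 and 7.90 in knockout aortas, a difference of -0.76 (SE 0.19, adjusted p = 0.13 in limma). Wild type replicate 1 and knockout replicate 4 were the arrays on which the groups overlapped. Pde3b, which hydrolyses cyclic AMP, stood at -0.25 (SE 0.084, adjusted p = 0.17) and the transcription factor gene Creb1 at 0.22 (SE 0.086, adjusted p = 0.21).

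Of the genes of Ptgs2 transcription and mRNA stability, 27 of 28 were tested, 10 higher and 17 lower (median -0.023). Fosl1, an AP-1 subunit, read 4.94, 6.00, 6.45 and 7.11 in wild type and 4.65, 3.43, 3.84, 4.65 and 4.06 in knockout aortas. The groups did not overlap, with means of 6.12 ± 0.91 (SD, n = 4) and 4.13 ± 0.53 (SD, n = 5), and the knockout values reached the floor. Tia1, an RNA-binding protein that restrains Ptgs2 translation, stood at 0.46 (SE 0.12, adjusted p = 0.13 in limma) with no overlap, and Cebpb, the gene of a C/EBP factor, at -0.47 (SE 0.13, adjusted p = 0.14).

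Of 19 cytokines and transcripts that inflammation induces together with Ptgs2, 14 were tested, 6 higher and 8 lower (median -0.037). Il6, Tnf, Il1a, Cxcl2 and Sele did not pass the filter on low values. Tnfaip6, a hyaluronan-binding protein, read 8.60, 10.23, 10.33 and 10.63 in wild type and 8.68, 8.13, 8.59, 8.87 and 8.79 in knockout aortas, a difference of -1.34 (SE 0.37, adjusted p = 0.14 in limma). Wild type replicate 1 alone lay within the knockout range, as on the brighter Ptgs2 probe set; on the dimmer, all 4 wild type arrays lay within it. Socs3, a feedback inhibitor of cytokine signalling, stood at -0.80 (SE 0.23, adjusted p = 0.14) and the pentraxin gene Ptx3 at 0.40 (SE 0.14, adjusted p = 0.19).

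**Figure D4:**
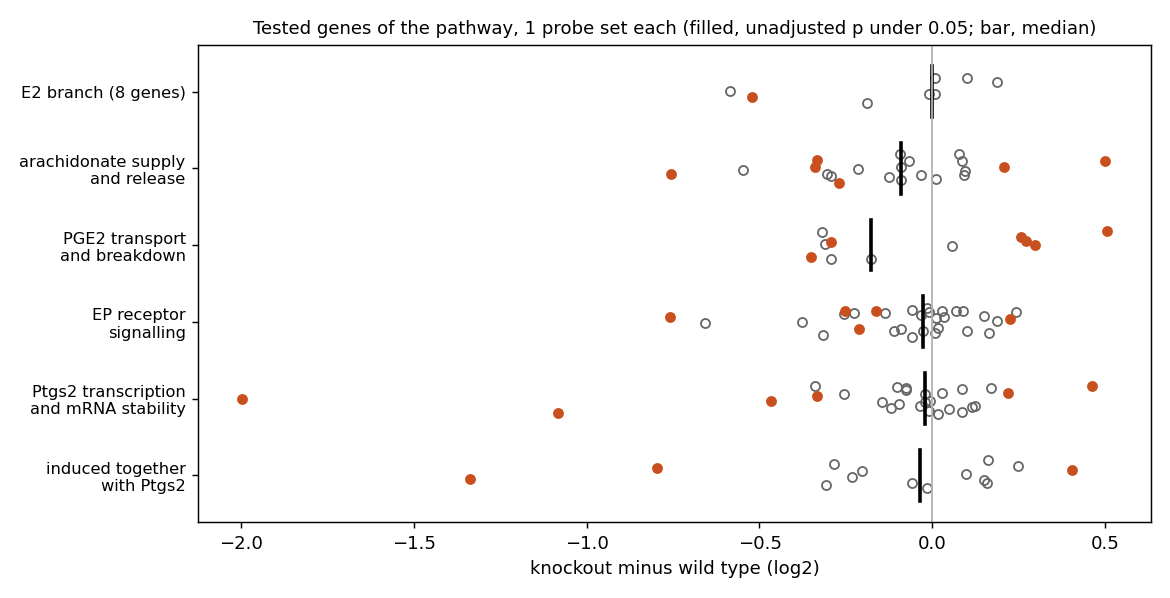
Each point is a tested gene by its brightest probe set, with its difference (knockout minus wild type, log2) on the horizontal axis and its list on the vertical axis, filled where the unadjusted p was under 0.05, and bars mark list medians. In every list genes lie on both sides of 0, and the medians run from -0.18 to -0.023 in the 5 pathway lists.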

How the data were processed

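Aorta RNA of wild type and Ptgds-/- mice was measured on Affymetrix arrays of 45101 probe sets. The deposited log2 values are the authors' GCRMA output, as named in the submitters' processing notes: a background correction, a normalization and a summary of each probe set's probes. The GCRMA version, and the log2 scale, which was read from the values' range, are not given in the sources used here. Nothing was scaled again. Values below about 4 lie near background, so differences there are not exact. Precision is limited by how few arrays there are.

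Of the probe sets, 34945 have 1 symbol, 932 several and 9224 none or are not listed; 64 controls were left out. Tested were the 26504 with 1 symbol and a log2 value over 4 on at least 4 arrays. The 4 wild type and 5 knockout arrays were fitted without covariates by lmFit and eBayes of limma 3.58.1 (R 4.3.3), with p-values adjusted by Benjamini-Hochberg over all tested probe sets with a threshold of 0.05. The fit was tested on simulated data. A gene's brightest probe set stands for it in the lists. Named were every member probe set, the 3 smallest p-values of each list and the 3 genes most like each member. Members and lists were chosen with earlier results of these data known. Alternatives were other normalizations, filters, priors, array weights, covariates, a replicate block and leaving out each array.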

Additional observations from a re-analysis of the deposited data

Results flagged for a closer look

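Ptges2 on probe set 1417591_at was picked out because wild type replicate 3, at 8.50, lay far from the other wild type arrays, which spanned 8.17 to 8.18. The gap to the nearest of them was 0.967 of the group's whole range. It was the 1 such value among 34 groups of arrays examined over 17 probe sets of the E2 branch, where chance picks out about 1 in 20 groups. The cause was not tested.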

How the results depend on the processing

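Under every alternative run, Ptges2, Ptger2, both Ptgs2 probe sets and the bright Ptger4 probe set kept their direction, and 1 member value changed its side of the threshold: Ptgs2 on 1417262_at at -0.90 without wild type replicate 1. Over the arrays left out in turn it ran from -0.90 to -0.42. The number of member probe sets past the threshold was then 0 to 1, that of pathway genes 0 to 13 and that of all tested probe sets 6 to 1673. Member probe sets at an unadjusted p under 0.05 numbered 0 to 2 (0 without wild type replicate 3, 2 without knockout replicate 5). All tested probe sets at that level numbered 3992 without wild type replicate 3 and 4049 without knockout replicate 5, of 26504. The array-wide count of 21 became 8 with 1 probe set per gene, 66 with trend and robust priors, 367 with array weights, 9 with either covariate and 1 with the replicate block. Array weights gave 3 member probe sets at an unadjusted p under 0.05, that of Ptger2 and both of Ptgs2, beside 5931 of all 26504 tested probe sets. They put 3 pathway genes past the threshold, in the fit in which 367 of all tested probe sets passed. The early gene covariate, chosen after seeing the data, and the replicate block gave 2 member probe sets each at that unadjusted level. All tested probe sets at that level then numbered 4389 and 3622 of 26504, respectively.

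Direction turned for probe sets with small differences. With array weights Ptger1 stood at -0.074, Ptger3 (1425251_at) at 0.11 and Ptger4 (1421073_a_at) at -0.026. With white adipocyte markers as a covariate Hpgd (1419905_s_at) stood at 0.048 and Ptger3 (1425251_at) at 0.0016. With early genes as a covariate Hpgd (1419906_at) stood at -0.012, Ptger3 (1450344_a_at) at -0.041 and Ptges (1449449_at) at 0.0044. With arrays left out, ranges were -0.33 to 0.14 and -0.24 to 0.18 for Hpgd, -0.19 to 0.30 for Ptger1, -0.11 to 0.11 and -0.056 to 0.16 for Ptger3, -0.073 to 0.098 for Ptger4 (1421073_a_at), and -0.056 to 0.071, -0.058 to 0.038 and -0.063 to 0.15 for Ptges. The cause of these turns and of the moved counts was not tested.

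With the replicate block, in which knockout replicate 2 has no partner and adds nothing to the difference, Ptgds stood at -5.30 with an adjusted p of 0.091 in limma, Hpgd (1419906_at) at -0.010, Ptger3 at 0.042 and -0.037, Ptger4 (1421073_a_at) at -0.028 and Ptges at -0.056 (1439747_at) and -0.063 (1449450_at). The labels tie no arrays together by number. Deviations of same-numbered arrays correlated at -0.27, -0.11, 0.071 and 0.15, which cannot show whether they shared a batch or litter.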
